A study of Homo sapiens with 6 samples.

Results

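C15orf48 was followed as a single gene, 1 of the 7758 genes in the deposited RNA sequencing table, and it was found by its symbol in that table. The cells were ARPE-19, a human retinal pigment epithelium (RPE) line, infected with lentivirus and selected with drug. They expressed a short hairpin targeting METTL3 (sh-METTL3) or a negative control hairpin (sh-Control). METTL3 is the catalytic subunit of the complex that writes N6-methyladenosine into mRNA. All cells in both groups had received lipopolysaccharide (LPS) at 1 μg/ml for 24 h, and there were 3 libraries per group, so neither group shows a resting level. Whether a group's libraries stem from independent infections is not stated, so p-values measure only the spread between them, which may be technical. The gene was chosen by its fall in these same libraries, that is on its scaled counts and fold change, and its own values are given below as a description without a test.

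C15orf48, also known as NMES1, MOCCI or COXFA4L3, encodes a small protein of the inner mitochondrial membrane. It is a paralogue of NDUFA4, a subunit of cytochrome c oxidase (complex IV), the last enzyme of the respiratory chain. In inflamed epithelia and macrophages the gene is known to be induced through NF-κB, and its protein can take the place of NDUFA4 in complex IV. Its transcript also carries the precursor of miR-147b in the 3′UTR, and NDUFA4 mRNA is a known target of that microRNA.

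C15orf48 (ENSG00000166920) lies on GRCh38 chromosome 15, from 45430529 to 45448761 on the plus strand, with 1405 bases of exonic sequence. In GENCODE release 29, its transcripts of 732 and 875 bases each hold a reading frame of 83 codons, and in both the mature microRNA starts at base 82 of the 3′UTR. The first sequence shown is this microRNA from RefSeq (chr15:45433098-45433118, plus strand), with its seed, bases 2 to 8, in capitals. The second is the one match to that seed in the 3′UTR of NDUFA4 (chr7:10933573-10933595, minus strand), read from the GENCODE transcript, with the 7 bases complementary to the seed and the A opposite microRNA base 1 in capitals. They are shown because they join C15orf48 to the gene whose level is set beside it here.
hsa-miR-147b-3p: gUGUGCGGaaaugcuucugcu
NDUFA4 3′UTR site: ttccagaagccacatCCGCACAA
The site began at base 56 of a 3′UTR of 1685 bases. Such a match of 8 bases was present in 48 of 18857 protein-coding genes with a 3′UTR (0.255%). The microRNA itself was not among the listed genes, and its level was not analysed here.

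Every gene in the table had already been called different by the authors, at an adjusted p of at most 0.05, and genes outside it were not analysed here. The values are read counts divided by 1 size factor per library, called scaled counts below. From 10898434 to 17750052 reads per library fell on listed genes. By limma, at a threshold of 0.05 on the adjusted p, 97.9% of listed genes passed, 51.3% lower and 46.6% higher in sh-METTL3. The median log2 fold change over listed genes was -0.21, and it was -0.09 both with DESeq2 and with edgeR under RLE factors, whose size factors were estimated on the listed genes. Of the genes called, 47.6% were higher by limma, 47.7% by edgeR with the authors' size factors, 56.3% by edgeR with RLE factors and 57.7% by DESeq2. METTL3 itself had scaled counts of 1118 ± 32.8 in sh-Control and 911 ± 128 in sh-METTL3 (SD, n = 3 each), a call with an adjusted p of 0.032 by limma that was lost in 7 of 15 alternative fits, among them those without any 1 of the sh-Control libraries. Of 16 RPE markers 8 were listed, 3 lower and 5 higher, with summed scaled counts from 18864 to 20134 in sh-Control and from 30688 to 33858 in sh-METTL3, most of it the keratin KRT8. KRT8, KRT18, LRAT and the pigment cell factor MITF were present in all 6 libraries and rose, while SERPINF1, PMEL and BEST1 fell, with log2 fold changes of -3.04, -1.80 and -1.73. The eye field factor RAX had 0 reads in each sh-Control library and scaled counts of 380, 421 and 530 in sh-METTL3. RPE65 and RLBP1 were not among the listed genes.

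C15orf48 was well expressed in the control cells and close to the detection limit in the sh-METTL3 cells. The sh-Control libraries had scaled counts of 463, 627 and 562, from 580, 653 and 601 reads. The sh-METTL3 libraries had 2.80, 6.44 and 12.3, from 3, 5 and 11 reads. The groups lay far apart, since the lowest control was 37.6 times the highest sh-METTL3 library.

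The group means were 551 ± 82.9 and 7.19 ± 4.80 (SD, n = 3 each), so 1.31% of the control level was left. On the log2 scale, after adding a pseudocount of 1, the difference was -6.24 (SE 0.38). With the reads of each group summed, 1834 against 19, the level was 78.6-fold lower in sh-METTL3. The exact binomial 95% interval was from 50.2-fold to 131-fold and covers counting error only. With this pseudocount the log2 fold change of C15orf48 was the second most negative in the table, after that of the potassium channel gene KCNJ15 (-6.80). KCNJ15 had scaled counts of 0, 1.29 and 0 in sh-METTL3, so its value depends on the pseudocount, and so does the rank. By the ratio of group means, ELN (0.0106) and MT1A (0.0122), for example, also lay below C15orf48 (0.0131). In bulk RNA, fewer cells with the transcript and less transcript per cell cannot be told apart.

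The libraries of a group also differed among themselves. In the controls the exact Poisson 95% interval of the scaled count was 426 to 502 in replicate 1 and 580 to 677 in replicate 2, so these controls differed beyond counting error. In sh-METTL3 the intervals were 0.577 to 8.18, 2.09 to 15 and 6.15 to 22 in replicates 1, 2 and 3. The highest of these libraries was 4.40 times the lowest, on few reads. Replicate 3, the highest, is also the library that the second principal component of all listed genes set apart. Without it the log2 fold change of C15orf48 was -6.69, and without replicate 1 it was -5.78.

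Other transcripts share the ground of C15orf48. The antisense gene AC025580.1 overlaps it by 11157 bases and was not listed. AC025580.2, on the same strand, overlaps the last 335 bases of the gene, and its scaled counts were 70.2, 76.9 and 96.3 in sh-Control and 31.7, 41.2 and 20.2 in sh-METTL3. Reads in those shared bases could belong to either gene. The strand setting of the read counting is not given in the sources used here, so reads of AC025580.1 may also have been counted for C15orf48.

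**Figure D1:**
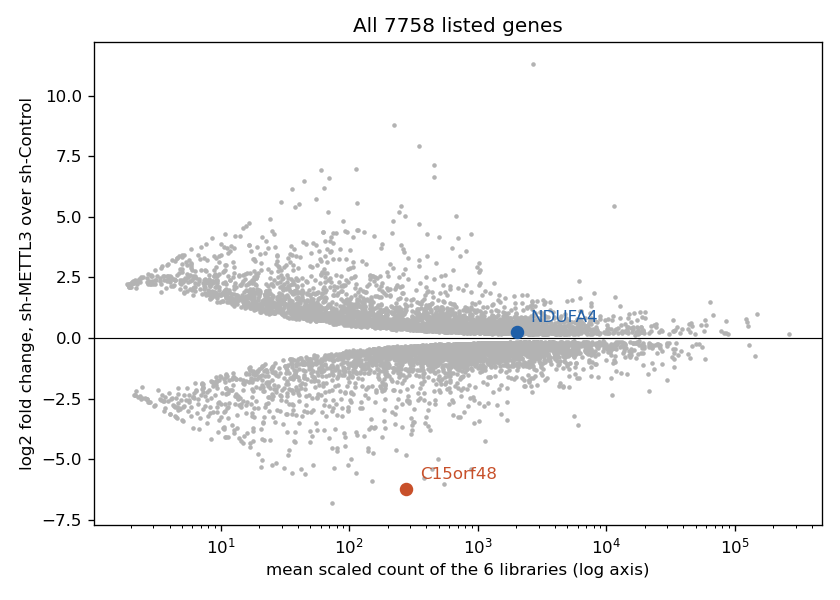
Log2 fold change (sh-METTL3 over sh-Control, vertical axis) against the mean scaled count of the 6 libraries (log axis) for the 7758 listed genes, each a point. C15orf48, at -6.24, lies near the lower edge of the cloud, and NDUFA4, at 0.26, lies just above 0; the empty band around 0 is the authors' selection of called genes.

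NDUFA4, the paralogue whose place the protein can take, did not fall with C15orf48. Its scaled counts were 1796, 1869 and 1836 in sh-Control and 2412, 2352 and 1869 in sh-METTL3. The sh-METTL3 libraries were all higher than the controls, but replicate 3 lay within 1 scaled count of the highest control. NDUFA4 rose from 1833 ± 36.6 to 2211 ± 298 (SD, n = 3 each). The log2 difference was 0.26 (SE 0.089), with an adjusted p of 0.0451 from limma. This call was close to the threshold and was lost in 8 of 15 alternatives, among them the 5 fits that each left out 1 library other than sh-METTL3 replicate 3. Its adjusted p ranged from 0.000185 to 0.213, with a log2 fold change from 0.19 to 0.39. NDUFA4L2, the other paralogue, was not among the listed genes.

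Compared per length, the paralogues were at a similar level in the control cells. Per kb of exonic length, C15orf48 had scaled counts of 329, 447 and 400 in sh-Control, and NDUFA4 had 505, 526 and 516. In sh-METTL3, C15orf48 had 1.99, 4.59 and 8.77 per kb and NDUFA4 had 678, 661 and 526. The ratio of C15orf48 to NDUFA4 was thus 0.759 ± 0.0997 in sh-Control and 0.00885 ± 0.00707 in sh-METTL3 (SD, n = 3 each). Added together they reached 907 ± 69.3 per kb in sh-Control and 627 ± 80.4 in sh-METTL3. With the length of the longest coding transcript in place of all exonic bases, chosen after seeing the data, the control ratio was 0.730. The per-kb level of C15orf48 was above that of 81.4% of listed genes in sh-Control and of 7.68% in sh-METTL3.

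**Figure D2:**
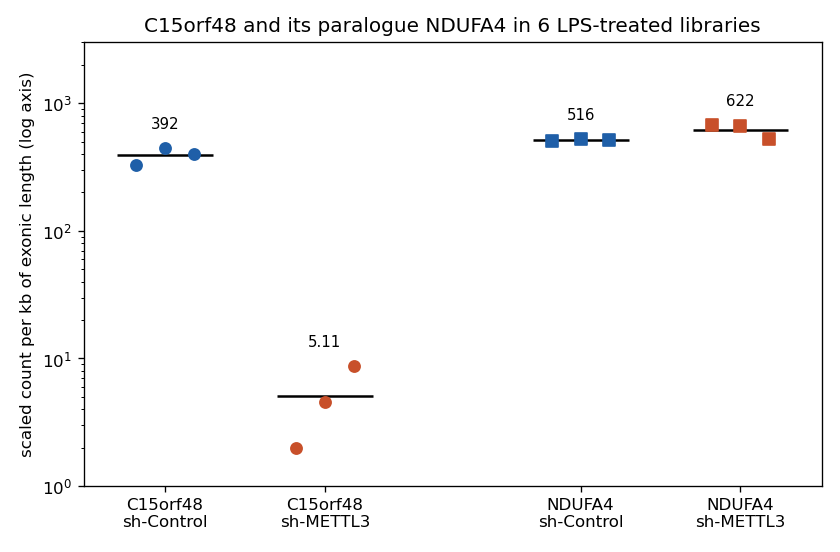
Scaled counts per kb of exonic length (log axis) of C15orf48 and NDUFA4 in each of 3 sh-Control (blue) and 3 sh-METTL3 (orange) libraries, with the group mean as a line and a number. C15orf48 went from a mean of 392 to 5.11, while NDUFA4 had means of 516 and 622.

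The other subunits of complex IV were compared next. Of 20 subunit genes, NDUFA4 included, 6 were listed and all 6 passed by limma, as did 97.9% of listed genes, with 4 higher and 2 lower against 46.6% and 51.3% of listed genes. Their median was 0.27 on the log2 scale. The median over all listed genes was -0.21. The mitochondrially encoded catalytic subunit MT-CO2 rose from 37349 ± 4002 to 48819 ± 2640, the small subunit COX6C from 1273 ± 93.6 to 1549 ± 62.0, and COX8A from 861 ± 75.9 to 1100 ± 160 (SD, n = 3 each). Their log2 fold changes were 0.39, 0.28 and 0.34 (adjusted p 0.00587, 0.00775 and 0.0289 by limma). The groups of COX8A overlapped, and its call was lost in 5 of 15 alternatives.

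COX5A fell from 1117 ± 54.0 to 964 ± 46.1 (SD, n = 3 each; adjusted p 0.03 by limma), and this call was lost in 9 of 15 alternatives. COX6B2, an isoform of COX6B best known from testis, had scaled counts of 23.1, 18.3 and 18.7 in sh-Control and of 0, 6.44 and 2.24 in sh-METTL3, where it was near the floor of 3 reads. The COX6B2 log2 fold change was -2.86, but -4.12 with a pseudocount of 0.1, -2.09 without sh-METTL3 replicate 1 and -3.54 without replicate 2. The count of subunits passing dropped to 3 without sh-Control replicate 3 and to 3 without sh-METTL3 replicate 2. The 14 unlisted subunits, among them COX4I1 and MT-CO1, were not analysed here.

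Of 26 genes for the assembly of complex IV, 8 were listed, with 4 lower, 3 higher and 1 not passing, near the 51.3% lower and 46.6% higher of all listed genes. COA7 fell from 557 ± 87.2 to 270 ± 33.8 and SCO1, a copper chaperone, from 928 ± 32.6 to 746 ± 41.5 (SD, n = 3 each), with log2 fold changes of -1.04 and -0.32. COA4 and LRPPRC, the latter a stabiliser of mitochondrial mRNAs, fell too, with log2 fold changes of -0.54 and -0.21. The call for LRPPRC was lost in 5 of 15 alternatives, where its log2 fold change reached -0.089, and those for SCO1 and APOPT1 were lost in 2 each. COA1, APOPT1 and COA5 rose by log2 values of 0.40, 0.41 and 0.42. COX14, at 0.31 on the log2 scale, missed the threshold with an adjusted p of 0.0655 (limma) and passed it in 6 of 15 alternatives. The median log2 fold change of the listed assembly genes was 0.05. No gene of complex IV or its assembly that was listed changed by as much as C15orf48, but that gene was chosen for its large fall.

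NF-κB-inducible genes were set beside C15orf48, which is itself known as one. Of 40 such genes 31 were listed, and 29 fell, 1 rose and 1 did not pass by limma. Their median log2 fold change was -1.29, against -0.21 over all listed genes, where 51.3% were called lower. This list and the others were written with earlier results of these data known, so the counts are a description.

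The 6 inducible genes with the most negative fold changes were CXCL5, BCL2A1, CXCL2, TNFAIP2, CSF2 and IL1A. The chemokine CXCL5 fell from 71.2 ± 6.90 to 4.21 ± 2.04 and the anti-apoptotic BCL2A1 from 33.9 ± 4.76 to 1.54 ± 0.900 (SD, n = 3 each). CXCL2 fell from 714 ± 159 to 73.5 ± 12.8, TNFAIP2 from 10091 ± 752 to 1096 ± 124, and CSF2 from 566 ± 112 to 74.0 ± 18.7 (SD, n = 3 each). IL1A had 18.9 ± 1.97 in sh-Control and 2.84 ± 2.49 in sh-METTL3 (SD, n = 3 each). The log2 fold changes of these genes were -3.88, -3.82, -3.26, -3.20, -2.93 and -2.72, with adjusted p-values of 1.87e-05, 2.72e-05, 7.24e-07, 9.18e-09, 2.88e-06 and 0.00561 by limma. In sh-METTL3, BCL2A1 and IL1A were near or under the floor of 3 reads, and their values depended on the fit. With a pseudocount of 0.1 the log2 fold change was -4.49 for BCL2A1 and -3.94 for IL1A, and without sh-METTL3 replicate 3 that of IL1A was -1.92. None of the 31 had a more negative log2 fold change than C15orf48. That gene was chosen for its fall, so this order was largely set by the choice and says nothing about the list.

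Members of the same list at the other end moved little. NFKBIA, the inhibitor that NF-κB induces to limit itself, fell from 3283 ± 36.0 to 2653 ± 52.3 (SD, n = 3 each), and its log2 value changed by -0.31. TNIP1, another inhibitor of the pathway, had a log2 fold change of -0.18 and did not pass (adjusted p 0.071 by limma), though it passed in 3 of 15 alternatives. SOD2, the mitochondrial superoxide dismutase, rose from 23501 ± 999 to 27698 ± 2793 (SD, n = 3 each; adjusted p 0.0482 by limma), a call that was lost in 8 of 15 alternatives.

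The route from LPS to NF-κB was described by 17 genes, of which 13 were listed, 11 lower and 2 higher, against 51.3% and 46.6% of all listed genes. Their median was -0.51 on the log2 scale, against -0.21. The LPS receptor gene TLR4 fell from 567 ± 15.7 to 118 ± 13.7 and the NF-κB subunit gene RELA from 4174 ± 223 to 2452 ± 119 (SD, n = 3 each). The LPS co-receptor gene CD14 had scaled counts of 24.7, 25.9 and 25.2 in sh-Control and of 2.80, 0 and 1.12 in sh-METTL3, at or under the floor of 3 reads. IKBKG, IRAK4 and TIRAP, an IKK subunit, a receptor-proximal kinase and an adaptor, had log2 fold changes of -0.67, -0.62 and -0.53, of which the calls for IKBKG and TIRAP were lost in 4 and 5 of 15 alternatives. The kinase genes IRAK1 and MAP3K7 rose by log2 values of 0.58 and 0.35. With the DESeq2 Wald test 8 of the 13 passed, and 2 of those were higher.

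**Figure D3:**
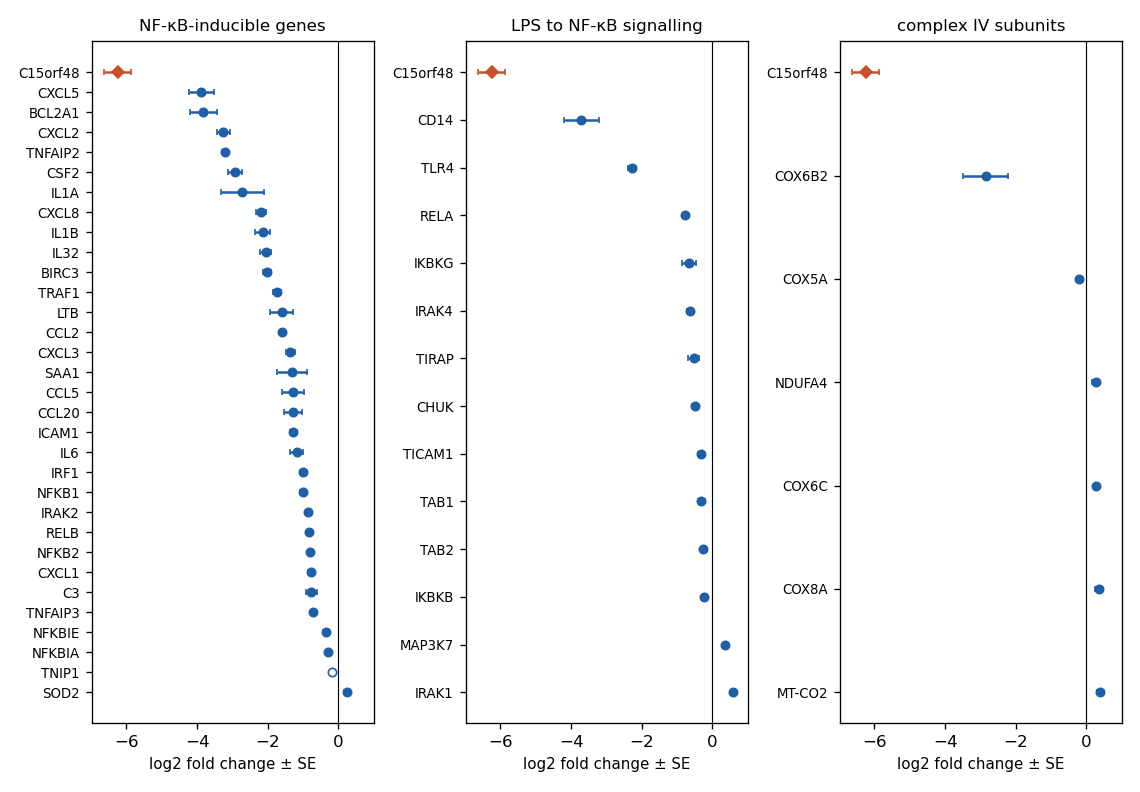
Log2 fold changes (sh-METTL3 over sh-Control, ± SE from limma) of C15orf48 (orange diamond, repeated in each panel) and of the listed NF-κB-inducible genes, LPS to NF-κB signalling genes and complex IV subunits (blue circles, open where the adjusted p was above 0.05). C15orf48, which was chosen for its fall, lies to the left of every gene shown. The inducible genes run from -3.88 (CXCL5) to 0.23 (SOD2), and 4 of 6 complex IV subunits lie right of 0.

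The promoter of C15orf48 was also read for the NF-κB consensus. The 300 bases from 250 before to 50 after the RefSeq start on GRCh38.p14 held no match on either strand. A match was present in 3956 of 35116 RefSeq promoters of this length (11.3%). Of the NF-κB-inducible genes 33 had a promoter matched by symbol, and 21 of these genes (63.6%) held the consensus in at least 1 promoter, CXCL2, NFKBIA and IL6 included. The share of 11.3% counts promoters and that of 63.6% counts genes, so their units differ. A match is a description of letters, and its absence says only that they are not in this window.

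The genes around C15orf48 were lower as well, but by far less. Within 2 Mb there were 22 listed neighbours, of which 21 were lower, 0 were higher and 1 did not pass by limma, against 51.3% lower among all listed genes. Most of the neighbours lay before C15orf48. After it the last was SQOR, 182 kb away, and the next listed gene lay 2443 kb beyond SQOR, outside this window. The groups did not overlap for any of the 22, as for 98.5% of listed genes. Their median log2 fold change was -1.11, and their median ratio of sh-METTL3 to sh-Control was 0.464. The ratio of C15orf48, 0.0131, was 35.6 times below that median, a gap favoured by the choice of this gene for its fall. In sh-METTL3 replicates 1, 2 and 3 the median neighbour ratio was 0.423, 0.464 and 0.494, whereas the ratio of C15orf48 was 0.00508, 0.0117 and 0.0224.

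The 4 nearest listed genes lay between -1.62 and -0.72 on the log2 scale. SPATA5L1, which ends 9.11 kb before C15orf48, had scaled counts of 267, 212 and 229 in sh-Control and 86.8, 101 and 99.7 in sh-METTL3. The zinc transporter gene SLC30A4, which lies 30.9 kb after it, had 241, 239 and 263 in sh-Control and 157, 124 and 175 in sh-METTL3. SPATA5L1 and SLC30A4 both fell, with log2 fold changes of -1.29 and -0.72 (adjusted p 6.36e-05 and 0.00319 by limma). The overlapping AC025580.2 and the pseudogene HMGN2P46 had log2 fold changes of -1.40 and -1.62. Both of these overlap SLC30A4, on the other strand, and their reads may not have been told apart where they do.

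Further out, BLOC1S6, a subunit of the complex that builds lysosome-related organelles such as melanosomes, had the smallest fall, from 1170 ± 9.13 to 825 ± 31.5 (SD, n = 3 each; log2 fold change -0.50). SQOR, a mitochondrial enzyme that oxidises sulfide, fell from 566 ± 51.9 to 183 ± 17.5 (SD, n = 3 each; log2 fold change -1.62). SORD, of the polyol pathway, and TRIM69, an interferon-induced ubiquitin ligase, had log2 fold changes of -1.05 and -1.46. B2M, the light chain of MHC class I, fell from 46115 ± 2827 to 13697 ± 753 (SD, n = 3 each; log2 fold change -1.75). SPG11 fell by 1.11 on the log2 scale.

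Among the 12 neighbours beyond these 10, MAP1A, a microtubule-associated protein, had the most negative log2 fold change, -2.89, from 220 ± 10.9 to 31.2 ± 16.0 (SD, n = 3 each). The pseudogene AC011330.1 was the one that did not pass (adjusted p 0.0625 by limma), though it passed in 5 of 14 alternatives. Ordered by scaled count per kb, C15orf48 was 5 of 23 genes in sh-Control, counting itself, and 21 of 23 in sh-METTL3. Of 39 annotated protein-coding neighbours 19 were listed (48.7%), against 33.8% of all protein-coding genes, and the other 20 were not analysed here.

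**Figure D4:**
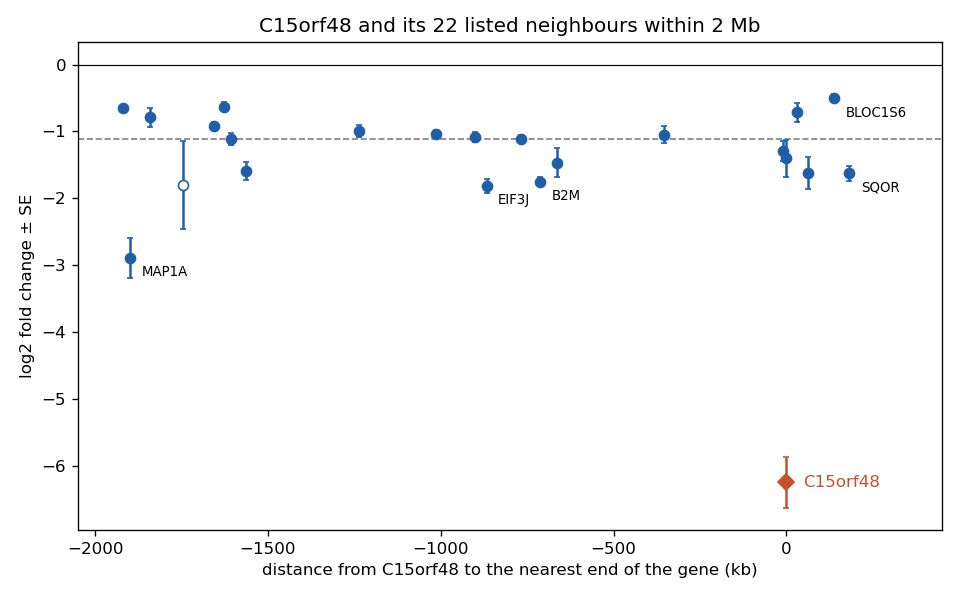
Log2 fold change (± SE from limma) of C15orf48 (orange diamond) and its 22 listed neighbours (blue circles, open where the adjusted p was above 0.05) against the distance in kb to the nearest end of each gene, negative before C15orf48 and 0 for the gene that overlaps it. The neighbours lie from -2.89 to -0.50 around a median of -1.11 (dashed line). C15orf48, which was chosen for its fall, lies alone at -6.24.

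The protein-coding genes with the pattern most like that of C15orf48 were MT1M, MT1A, ELN and ITM2A, by the distance between centred log2 values over the 6 libraries. That distance was from 1.20 to 1.35, and Pearson's r over the 6 libraries was from 0.989 to 0.994, which is mostly the difference between the groups they share. MT1M and MT1A encode metallothioneins, a family with such similar members that reads may be split between them. MT1M went from 221 ± 7.12 to 4.03 ± 2.33 (SD, n = 3 each). MT1A and ELN, which encodes elastin, each had scaled counts of 0, 0 and 2.24 in sh-METTL3, under the floor of 3 reads, so their distances depend on the pseudocount. ITM2A encodes a membrane protein. ITM2A went from 870 ± 59.7 to 20.2 ± 6.76 (SD, n = 3 each). None of these 4 genes lies on chromosome 15.

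Markers of other cell types were examined for the same contrast. Of 10 leukocyte markers 2 were listed, with summed scaled counts from 145 to 185 in sh-Control and from 154 to 187 in sh-METTL3. Within that sum ITGAM fell from 85.0 ± 10.0 to 9.85 ± 4.72 and CSF1R rose from 79.9 ± 10.7 to 159 ± 19.4 (SD, n = 3 each). PTPRC and CD68 were not among the listed genes. None of 7 endothelial markers was listed. Of 11 fibroblast and mesenchymal markers 5 were listed, 4 lower (COL1A1, COL1A2, PDGFRB and THY1) and 1 higher (VIM), with sums from 56256 to 59496 in sh-Control and from 89227 to 103732 in sh-METTL3, most of it VIM. Of all listed genes 51.3% were lower and 46.6% higher. Their part in the fall of C15orf48 was not tested.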

How the data were processed

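RNA from 3 sh-Control and 3 sh-METTL3 libraries of LPS-treated ARPE-19 cells was sequenced on an Illumina instrument. HISAT2 2.0.5 and hg38 are named in the submitters' processing notes, and the study's methods name Cufflinks; the read counter and strand setting are not given in the sources used here. The authors deposited 1 signal per gene and library, the read count divided by 1 size factor, and 100% of values came out as whole reads within 0.01. The group means, log2 fold changes and raw and adjusted p-values that the authors deposited were left out, except that the p-values gave the number of genes tested, 22977, of which 7758 are listed. For all 7758 the gene coordinates and exonic length equalled GENCODE release 29. In 13 rows a symbol turned into a date was restored.

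All listed genes were fitted without covariates by limma 3.58.1 (R 4.3.3), using its intensity trend, after a log2 transform with a pseudocount of 1. Its p-values were adjusted by Benjamini-Hochberg over 22977 tests at a threshold of 0.05. Alternatives tried were the quasi-likelihood test of edgeR 4.0.16 on whole reads (with the authors' size factors, where listed genes called were 7645, and with TMM or RLE), the DESeq2 1.42.0 Wald test, a pseudocount of 0.1, a mean of at least 50, no trend, a replicate block, each library left out, adjustment over listed genes alone, and windows of 1 and 5 Mb. Scripts were tested on simulated data. Replicates of a group differed beyond sampling noise in each pair (chi-square per degree of freedom 3.82 to 17.2). The depth of whole libraries is unknown.

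C15orf48 and all gene lists were chosen with earlier results of these data known. Named were C15orf48, METTL3, the paralogues, the 10 nearest neighbours within 2 Mb (the rest in ranges), listed complex IV genes, the 6 largest falls, up to 3 rises and those not passing in each NF-κB list, and the 5 most alike genes, of which 1 is not reported here. KCNJ15, MAP1A, AC011330.1, NFKBIA and IL6 were named after their values were seen.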

Additional observations from a re-analysis of the deposited data

How the results depend on the processing

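The log2 fold change of C15orf48 moved by less than the spread between replicates (0.66) in the 11 alternatives that could change it (the filter on low values, the trend and the block could not), and ran from -6.69 to -5.78 when 1 library was left out. A window of 1 Mb gave 12 neighbours called lower and one of 5 Mb gave 73, because they hold other numbers of genes (12 and 77 listed); with 2 Mb, leaving out a library gave 21 to 22. Complex IV subunits called dropped from 6 to 3 without the intensity trend, and to between 3 and 5 when a library was left out; the cause was not tested. LPS to NF-κB signalling genes called dropped from 13 to 8 with DESeq2; edgeR called 13 with the authors' size factors, 12 with TMM and 9 with RLE, so most of the drop came with the size factors. NF-κB-inducible genes called lower ran from 24 to 30 over all alternatives, and complex IV assembly factors called from 5 to 8. A tally by gene covered 81 genes: METTL3, the 22 neighbours, and all listed members of the complex IV and NF-κB lists, named here or not. Of these, 62 kept their side of the threshold in every alternative run for them, 16 lost the call in at least 1, 3 gained it, and 0 reversed. Genes named from outside these sets, such as KRT8 and MT1M, were not in the tally.

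With the replicate number as a block, the listed genes called were 7481, and 22 neighbours within 2 Mb, 5 complex IV subunits and 30 NF-κB-inducible genes lower were called. No pairing of libraries with the same number is stated in the sources used here. Their deviations from the group means had correlations of 0.00361, 0.0193 and -0.015, a check that cannot exclude a shared batch. All listed genes had been selected by the authors on these libraries, which limits what any alternative can show, and 3 to 11 reads per sh-METTL3 library limit the precision of C15orf48.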

Other observations

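Listed genes with the same 8-base match to miR-147b-3p as NDUFA4 were described. There were 24 of them, 13 lower and 11 higher in sh-METTL3 by limma, near the 51.3% and 46.6% of all listed genes, with a median log2 fold change of -0.25, close to the -0.21 of all listed genes. Among them were NDUFA4, the m6A reader gene IGF2BP2 (3060 ± 60.0 in sh-Control and 2437 ± 61.9 in sh-METTL3; SD, n = 3 each) and the histone methyltransferase gene KMT2A (5842 ± 81.0 and 3792 ± 90.7; SD, n = 3 each), both lower, and the autophagy gene VMP1 (3146 ± 164 and 5599 ± 504; SD, n = 3 each), higher. These genes were named after their values were seen.

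Within 5 Mb of C15orf48, the next most negative log2 fold change was that of SPINT1, an epithelial serine protease inhibitor, from 106 ± 32.0 to 6.94 ± 3.70 (SD, n = 3 each; log2 fold change -3.81, adjusted p 1.93e-05 by limma). Of the 77 listed genes in that window 73 were lower and 3 were higher, against 51.3% and 46.6% of all listed genes, and GABPB1-AS1 and GABPB1-IT1, noncoding transcripts at the GABPB1 locus, rose by log2 values of 1.41 and 0.92 while GABPB1 itself fell from 349 ± 19.6 to 238 ± 8.97 (SD, n = 3 each; adjusted p 0.00155 by limma); these transcripts overlap or adjoin it, and without a stated strand setting their reads may be mixed. The third, EID1, rose by 0.16 on the log2 scale (adjusted p 0.0451 by limma). These genes too were named after their values were seen.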
